A study of Mus musculus with 16 samples.

Results

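The genes described here encode the subunits of receptors for glutamate, GABA, glycine and acetylcholine in the mouse retina. They were taken by name from the deposited table of all genes: every symbol that starts with Gria, Grik, Grid, Grin, Grm, Gabra, Gabrb, Gabrg, Gabrr, Gabbr, Glra, Chrna, Chrnb or Chrm and goes on with a digit, together with Glrb and Gabrd. Grm6 was left out. The rule found 67 of the 25905 genes in the table. Of these, 66 are receptor genes: 25 for glutamate, 18 for GABA, 5 for glycine and 18 for acetylcholine. The remaining gene, Grid2ip, encodes a protein that binds a delta receptor and matched by name alone, so it was kept out of the receptor classes. Its mean normalized count was 2.57.

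The study compared the retinas of mice flown on the International Space Station for 35 days (Flight) with those of mice kept on Earth in the same kind of housing (Ground Control). All were male wild type C57BL/6 mice labelled as 10 weeks old, and the right retina was sequenced. The paper gives this age for the mice that were flown. Eyes were collected after the 35 days of flight, so the age at collection was higher. Each group had 8 libraries, 16 in all. The per-library columns of the count tables carry names that match no label, so values for each mouse, depth per library and the comparison of Flight with Ground Control are not analysed here. What remains is the authors' mean normalized count of each gene over all 16 libraries, with both groups pooled. It has no spread, and the differences between genes given here were therefore not set against the variation between mice.

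Glutamate is the transmitter of photoreceptors, bipolar cells and ganglion cells, which form the direct path of visual signals. Horizontal and amacrine cells shape those signals sideways, amacrine cells mainly through GABA and glycine, and starburst amacrine cells also release acetylcholine. Ionotropic receptors are channels built from several subunits, while metabotropic receptors act through G proteins. In whole retina, fewer cells of a type and less RNA per cell cannot be told apart.

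Markers of the labelled tissue were present, at widely different counts. The rod gene Gnat1, which encodes the transducin of rods, had a mean normalized count of 154477. Nrl of the same list, counted as 2 transcripts, had one of 88.9. The lowest of the amacrine and horizontal cell lists were Tfap2a at 33.9, also counted as 2 transcripts, and Lhx1 at 47.7. Over all genes in the table, 47.8% had a mean of at least 10. At a minimum of 10, all genes were detected in the lists for rods (4 of 4), cones (4 of 4), ON bipolar cells (3 of 3), bipolar cells (3 of 3), amacrine cells (5 of 5) and horizontal cells (3 of 3). Ganglion cell genes were detected in 4 of 5 cases and Muller glia genes in 3 of 4. The 2 genes that fell under the minimum in those lists were Rbpms, at 5.53, and Rlbp1, at 1.39, both named after their values were seen. Markers of tissues next to the retina were listed too, and whether their counts came from those tissues was not tested. The lens list (3 of 3 detected) summed to 1107 mean normalized counts, most of it from Cryaa at 897.6, and the pigment epithelium list (2 of 3) to 509, led by Rgr at 386, with Best1 at 2.72. The muscle list (0 of 4) summed to 16.0, led by Acta1 at 8.94. Both microglia genes and 1 of 2 endothelial genes were detected, with Pecam1 at 0.446. The part of these other cells in the receptor levels was not tested.

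The receptor levels have to be read beside the way the genes were counted. Reads had been counted on 31616 transcripts, and 3794 genes of the table were counted as more than 1 transcript. Those genes had a median mean normalized count of 0.806, against 12.9 for the 22086 genes counted as 1 transcript. The share that reached 10 was 24.6% for genes with more than 1 transcript and 51.7% for genes with 1. Among the receptor genes, 13 were counted as more than 1 transcript. Of these 3 reached 10 (23.1%), compared with 48 of the 53 counted as 1 transcript (90.6%). They include Gria1, Gria2, Gria4, Grik1, Grik2, Grin1 and Grm5 for glutamate, Gabra6 for GABA, and Chrnb3 and Chrm1 for acetylcholine. The markers Rbpms and Rlbp1 were likewise counted as 3 and 2 transcripts. The table of transcripts also has a row for ambiguous reads, and the part of the counting in these low values was not tested.

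**Figure D1:**
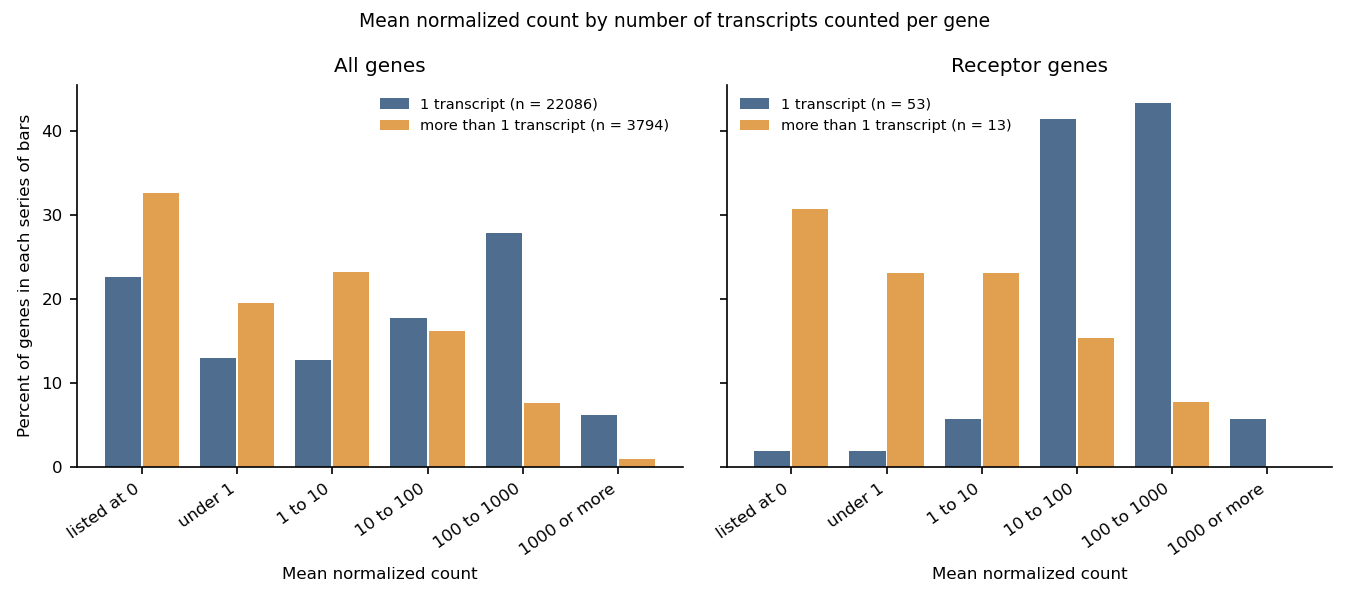
Bars give the percent of genes in each range of the mean normalized count (16 libraries pooled), for genes counted as 1 transcript and as more than 1, over all genes (left) and receptor genes (right). Of the receptor genes counted as more than 1 transcript, 30.8% were listed at 0, against 1.89% of those counted as 1.

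The AMPA receptor gene Gria1 is an example of how such transcripts can differ. AMPA receptors are the glutamate channels of fast excitation, and their genes hold a pair of alternative exons, known as flop and flip, of which a transcript uses 1. Both Gria1 transcripts in the table match reference transcripts that differ here. The upstream exon (flop) lies at chr11:57309769-57309883 and the downstream exon (flip) at chr11:57310608-57310722, both on the plus strand of GRCm38. Each has 115 bases, of which 79 are identical. Gria3 was counted as 1 transcript, and its matching exon of 115 bases lies at chrX:41669501-41669615 on the plus strand. It shares 101 bases with the downstream exon of Gria1 and 79 with the upstream exon, and is thus closer to flip. Capitals mark bases that differ from the other Gria1 exon or, for Gria3, from the downstream Gria1 exon.
Gria1 upstream exon: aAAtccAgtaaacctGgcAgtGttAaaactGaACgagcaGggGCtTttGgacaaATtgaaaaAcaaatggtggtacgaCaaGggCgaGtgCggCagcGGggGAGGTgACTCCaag
Gria1 downstream exon: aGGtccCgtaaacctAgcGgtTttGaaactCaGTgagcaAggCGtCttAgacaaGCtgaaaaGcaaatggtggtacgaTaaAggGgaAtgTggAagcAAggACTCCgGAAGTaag
Gria3 exon: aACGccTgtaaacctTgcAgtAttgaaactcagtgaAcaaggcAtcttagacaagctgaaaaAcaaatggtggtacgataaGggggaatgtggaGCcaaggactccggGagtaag

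Gria3 was the AMPA gene with the highest level. Its mean normalized count was 480, which is 92.3 per kilobase of its longest transcript, and the word level has this meaning from here on. Gria2, whose subunit makes the channel nearly impermeable to calcium, had a mean normalized count of 38.6 and a level of 3.72. Gria4 and Gria1 had levels of 1.82 and 0.414. All but Gria3 were counted as more than 1 transcript, so the level of Gria3, 24.8 times that of Gria2, sets a gene counted as 1 transcript against a gene counted as 3. Across 5 ways of treating length that ratio lay between 12.2 and 24.8.

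Kainate receptors are a related family of glutamate channels found, among other places, on OFF bipolar cells. Grik5, which encodes an accessory subunit that needs a partner from Grik1 to Grik3 to form a channel, had a level of 165, above 89.2% of all genes with a length. Grik3 followed at 14.3 and Grik4 at 4.83. Grik2 was listed at 0. Grik1, named here after its values were seen, had a mean normalized count of 0.355. Grik1 and Grik2 were both counted as 2 transcripts. Of the delta receptors, which take part in synapse organisation, Grid1 had a level of 43.0.

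NMDA receptors are glutamate channels that need glycine or D-serine as a second agonist and combine the obligatory subunit Grin1 with subunits of the Grin2 or Grin3 type. Grin2d, Grin2a and Grin2b had levels of 23.3, 11.9 and 11.4. This order rests on length: Grin2d was 1.95 times Grin2a with the longest transcript but 0.803 times with the coding length. The mean normalized counts were 126 for Grin2d, 174 for Grin2a and 274 for Grin2b, whose longest transcript has 24060 bases. Grin3b was lowest at 1.23. Grin1, which was singled out after its values were seen, had a level of 6.70. The summed level of the 4 Grin2 genes, each counted as 1 transcript, was 7.48 times that of Grin1, which was counted as 3. This was the lowest of the 5 ways of treating length, which reached 61.4 with the median transcript length. For Grin2b that median length was shorter than the coding length (level 390 against 61.7).

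The metabotropic glutamate receptors fall into groups by sequence and G protein. The group III genes in the table besides Grm6 are Grm4, Grm7 and Grm8, whose receptors are typically presynaptic brakes on release. Grm8 had the highest level, 102, and Grm7 the next, 52.4. Grm2 of group II stood at 28.3. The summed level of Grm4, Grm7 and Grm8 was 4.64 times that of the group II genes Grm2 and Grm3, and this ratio lay between 3.80 and 5.58 over the ways of treating length. Of group I, whose receptors act through phospholipase C, Grm5, named after its values were seen, had a mean normalized count of 0.577 and was counted as 2 transcripts. The summed level of the 18 ionotropic glutamate genes was 1.95 times that of the 7 metabotropic genes, and up to 5.07 times with the median transcript length.

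**Figure D2:**
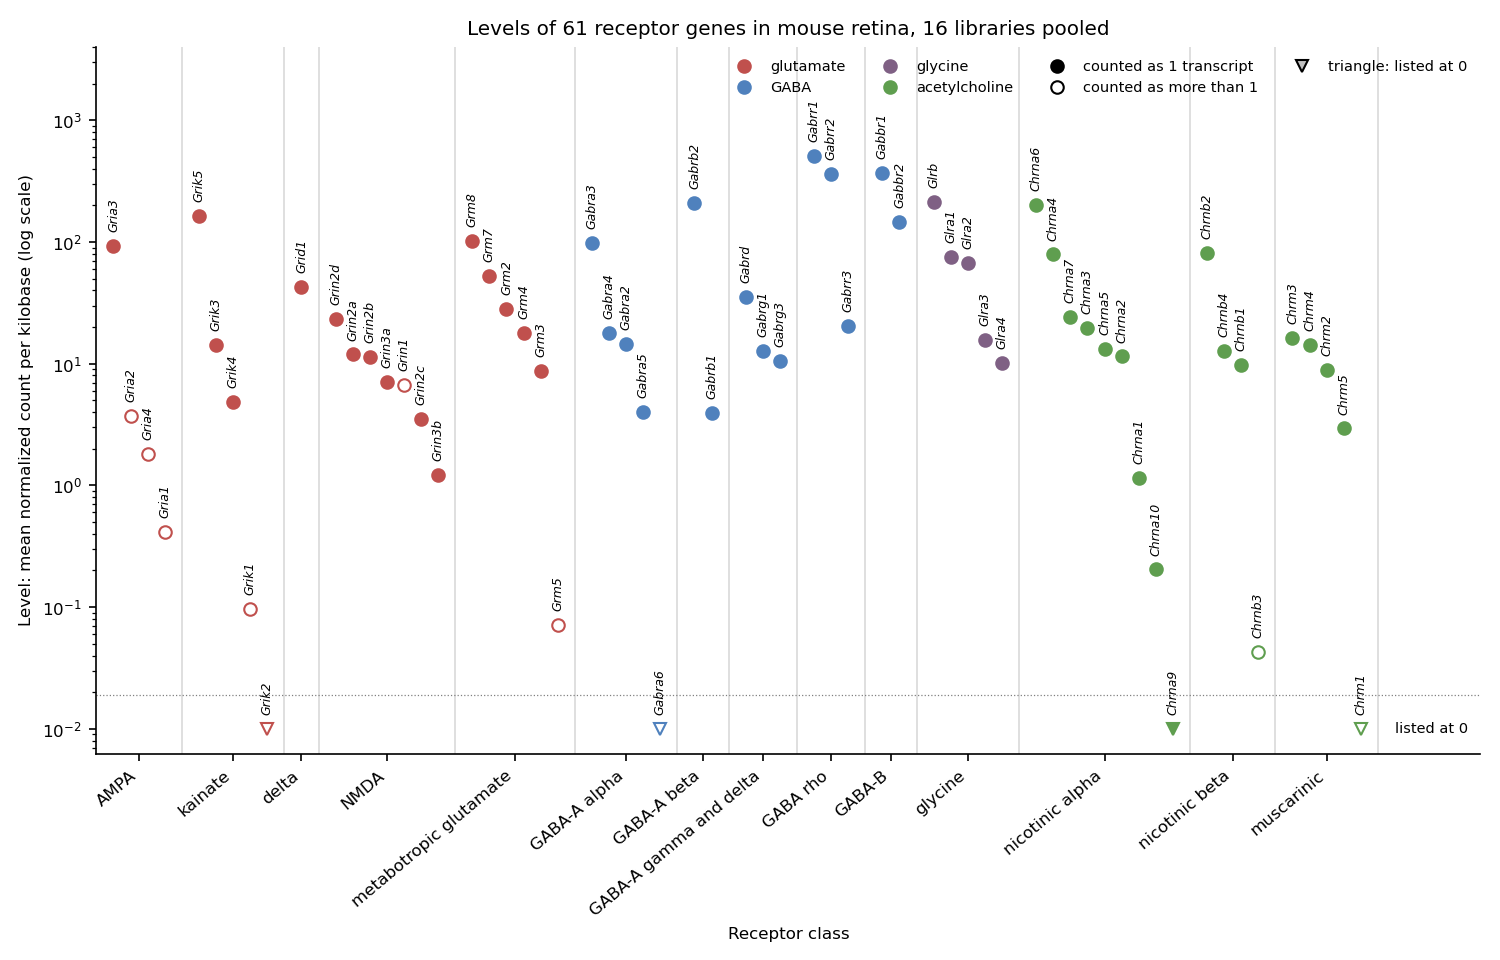
Each point is the level of 1 of 61 receptor genes (mean normalized count per kilobase of the longest transcript, log axis, 16 libraries pooled), ordered within its class; open symbols mark genes counted as more than 1 transcript and triangles 4 genes listed at 0, drawn at an arbitrary height. The highest level is that of Gabrr1 (510), and open symbols fill the low end of most classes that have any.

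GABA-A receptors are chloride channels, usually made of alpha, beta and gamma or delta subunits. Gabra3 had a level of 98.1, above 82.2% of all genes with a length and 5.45 times that of Gabra4 (18.01). Over the ways of treating length this ratio lay between 4.86 and 5.94. Gabra6, a subunit best known from cerebellar granule cells, was listed at 0 and counted as 2 transcripts. Gabrb2 had a level of 210, 53.2 times that of Gabrb1 (3.95), whose longest transcript has 13737 bases. This ratio lay between 14.3 (coding length) and 73.0 (median transcript length) over the ways of treating length.

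Gabrd, the delta subunit of receptors outside synapses, had a level of 35.2. Gabrg1 and Gabrg3 had levels of 12.7 and 10.6. Summed over each class, the alpha genes were 2.25 times the beta genes, with a range from 2.24 to 3.99 over the ways of treating length.

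The rho subunits form GABA channels that are typical of bipolar cell terminals. Gabrr1 had a level of 510 and Gabrr2 of 362, ranks 1 and 3 of the 66 receptor genes, and Gabrr3 stood at 20.3. Gabrr1 was 1.41 times Gabrr2 with the longest transcript and 0.925 times with the median transcript length. The summed level of the 3 rho genes was 1.84 times that of the 6 alpha genes, and 0.874 times by coding length.

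GABA-B receptors are metabotropic and work as pairs of the products of Gabbr1, which binds GABA, and Gabbr2, which couples to the G protein. Gabbr1 had the highest mean normalized count of all receptor genes, 1941, and a level of 370. Gabbr2 had a level of 147. The ratio of Gabbr1 to Gabbr2 was 2.51, between 2.25 and 3.64 over the ways of treating length.

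Glycine receptors are chloride channels of alpha subunits and the beta subunit from Glrb, which ties them to the scaffold protein gephyrin. All 5 genes were counted as 1 transcript and all reached 10. Glrb had a level of 213, or 55.9% of the glycine sum. Its level was 1.27 times the sum of the 4 alpha genes, and above that sum under each of the 5 ways of treating length (1.17 to 2.34). Glra1 and Glra2 lay close together at 74.8 and 67.1. Their order turned with length, since Glra1 was 1.12 times Glra2 with the longest transcript and 0.837 times by coding length. Glra4 was lowest at 10.1. By mean normalized count, Glra2 (211) stood above Glra1 (179).

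Nicotinic receptors are cation channels of alpha and beta subunits. Chrna6 led the alpha class with a level of 202, followed by Chrna4 at 78.9 and Chrna7 at 24.2. Chrna6 was 2.57 times Chrna4 with the longest transcript and 0.400 times with the median transcript length. For Chrna4 that median length was shorter than the coding length (level 506 against 187). Chrnb2, the usual partner of Chrna4 in the brain, led the beta class at 81.3, with Chrnb4 at 12.8 and Chrnb1, a subunit of the muscle receptor, at 9.83. Chrnb3, which joins receptors that contain Chrna6, had a mean normalized count of 0.198 and was counted as 2 transcripts. Chrna9, best known from hair cells of the inner ear, was listed at 0 although it was counted as 1 transcript.

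The muscarinic receptors are metabotropic. Chrm3 had a level of 16.3, Chrm4 of 14.3 and Chrm2 of 8.87, and Chrm1 was listed at 0 and counted as 2 transcripts. The order of Chrm4 and Chrm2 turned with length. Chrm2 stood above Chrm4 with the median transcript length (15.8 against 14.3) and with the coding length (36.0 against 14.3). It did so by mean normalized count as well (50.3 against 20.6). The summed level of the 13 nicotinic genes was 10.8 times that of the 5 muscarinic genes, and between 10.8 and 14.1 times over the ways of treating length. The 5 genes counted as 1 transcript that stayed under 10 were Chrna1, Chrna9, Chrna10, Chrm5 and Grin3b, so 4 of them encode acetylcholine receptors. Near the minimum, genes under it were Gria4 (9.90) and Chrna1 (5.02), and the closest at or over it were Gabra5 (10.7), Grin2c (17.2) and Glra4 (18.4).

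Many of these genes lie side by side. With at most 1 other protein-coding gene between them, 22 receptor genes formed 8 groups of neighbours in the RefSeq annotation of GRCm38. The levels within a group could be alike or far apart. Gabrb2 (210) is in a group with Gabra6, which was listed at 0. A further group of 4 GABA-A genes had lower levels: Gabra4 stood at 18.01, Gabra2 at 14.6, Gabrg1 at 12.7 and Gabrb1 at 3.95. Gabrg3 (10.6) and Gabra5 (4.02) share a group as well. Gabrr1 and Gabrr2 are neighbours and both were high. Chrna5, Chrna3 and Chrnb4 form a group with levels from 12.8 to 19.8. The widest gaps were in groups that hold a gene counted as more than 1 transcript. Chrna6 (202) is in a group with Chrnb3 (0.0431), Glra1 (74.8) with Gria1 (0.414), and Glrb (213) with Gria2 (3.72).

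**Figure D3:**
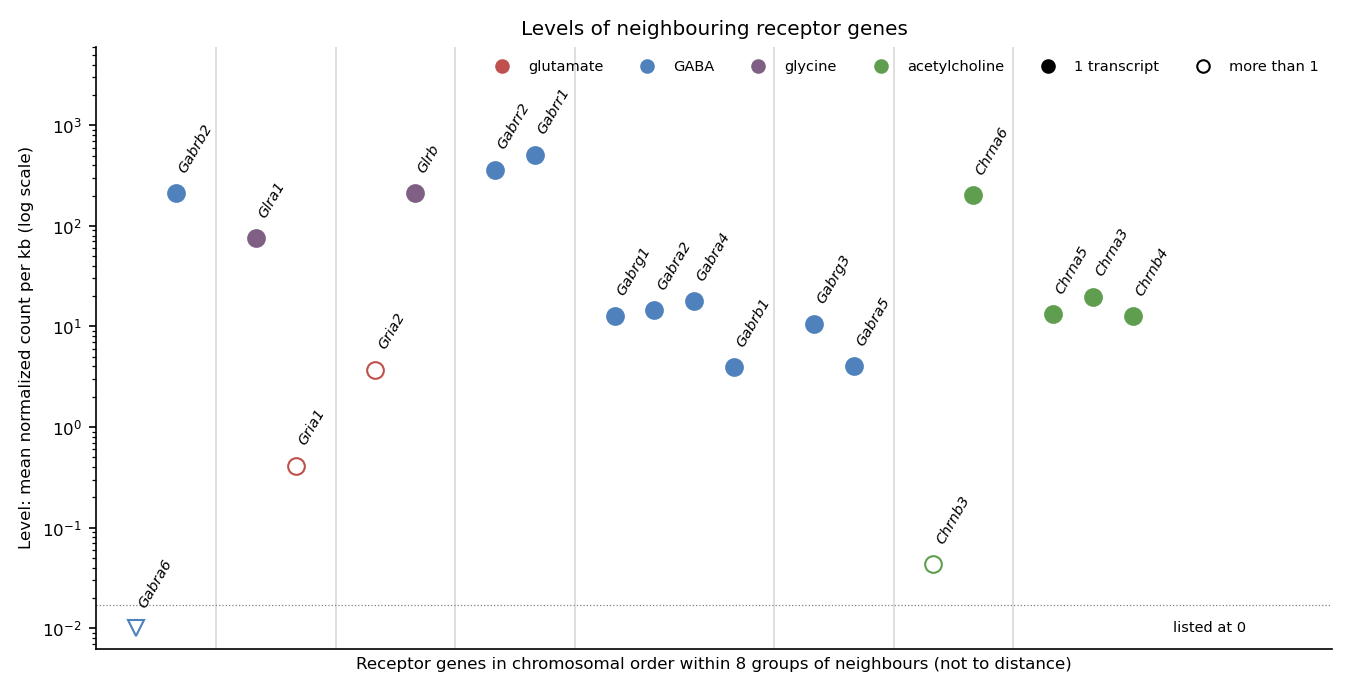
Points give the level (mean normalized count per kilobase, log axis) of 19 receptor genes in chromosomal order within 8 groups of neighbours divided by lines; open symbols were counted as more than 1 transcript and the triangle was listed at 0. Chrna5, Chrna3 and Chrnb4 (right) lie between 12.8 and 19.8, while Chrna6 and Chrnb3 stand at 202 and 0.0431.

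Genes that make, move or bind to these transmitter systems were measured in the same table, 65 in 8 lists. Of these, 53 reached 10: 47 of the 48 counted as 1 transcript, all but Rapsn at 6.56, and 6 of the 17 counted as more than 1. Over all genes in the table the shares were 51.7% with 1 transcript and 24.6% with more than 1. For glutamate, all 9 genes of uptake and vesicle loading reached 10. Glul, the glutamine synthetase of Muller glia, had the highest level at 6252, and Slc1a2, a glutamate transporter counted as 3 transcripts, the lowest at 17.4. Among 24 auxiliary and scaffold genes of glutamate receptors, 17 reached 10. Cacng7, from the family of AMPA receptor auxiliary subunits, was highest with a level of 333. Cnih3 of the cornichon family was listed at 0, as was Homer3, which was named after its values were seen. Both were counted as more than 1 transcript.

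For GABA, 6 of 7 genes of synthesis, uptake, loading and breakdown reached 10. Abat, the enzyme that breaks GABA down, had the lowest level at 2.07 and was counted as 2 transcripts. The chloride transporter Slc12a5, which exports chloride, had a level of 1063, and Slc12a2, which imports it, one of 65.9. Of 10 inhibitory scaffold and auxiliary genes 9 reached 10, with Gabarapl1 highest at 1423. The exception was Gphn, which encodes gephyrin, at a level of 1.13 with 2 transcripts counted.

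For glycine, the transporter Slc6a9 had a level of 496, the cleavage enzyme Gldc of 71.0, and the neuronal transporter Slc6a5, counted as 2 transcripts, of 0.307. For acetylcholine, all 5 genes of synthesis, uptake, loading and breakdown reached 10. Ache, which encodes acetylcholinesterase, was highest at 134 and Bche lowest at 6.49. Of 5 genes of nicotinic receptor assembly, 3 reached 10, with Lynx1 at a level of 381 and Ly6h at 1.13, the latter counted as 3 transcripts.

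Compared by transmitter, GABA receptor genes made up the largest share of the summed level, 59.8% of 3720 over 66 genes. Glutamate receptor genes gave 16.6%, acetylcholine 13.4% and glycine 10.2%. Median levels per gene ran in another order: glycine had 67.1, GABA 27.7, acetylcholine 12.1 and glutamate 8.69, while the median of all genes with a length was 4.42. The last places turned among genes counted as 1 transcript, where the median was 17.4 for glutamate (17 genes) and 13.0 for acetylcholine (16 genes), with 35.2 for GABA (15 genes). By class, GABA rho gave 24.0% of the sum, GABA-B 13.9%, GABA-A alpha 13.0% and glycine 10.2%. The nicotinic alpha class gave 9.45%, and the muscarinic class was smallest at 1.14%. The order of rho, GABA-B and alpha turned with the way of treating length. With the median transcript length, GABA-B led with 28.0%, followed by alpha with 20.6% and rho with 10.0%. For both GABA-B genes that length was shorter than the coding length (level 2364 against 674 for Gabbr1, 649 against 300 for Gabbr2). By coding length alpha led with 19.7%, and without a length correction GABA-B led with 18.9%. GABA stood first and glycine last under every alternative tried. Each alternative either kept the genes counted as more than 1 transcript at their deposited means or left them out. Such genes were 8 of 25 for glutamate, 3 of 18 for GABA and 2 of 18 for acetylcholine. All 5 glycine genes were counted as 1 transcript. The part of the counting in these shares was not tested. Without the leading gene of each class, glycine (13.1%), glutamate (14.9%) and acetylcholine (15.4%) came closest to each other.

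Detection by transmitter ran from 5 of 5 glycine genes through 16 of 18 GABA genes (88.9%) and 18 of 25 glutamate genes (72.0%) to 12 of 18 acetylcholine genes (66.7%). In all, 51 of 66 receptor genes reached 10 (77.3%), beside 47.8% of all genes in the table. Among genes counted as 1 transcript, the glutamate count was 16 of 17, GABA 15 of 15 and acetylcholine 12 of 16. Of the 8 glutamate genes counted as more than 1 transcript, 2 reached 10.

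**Figure D4:**
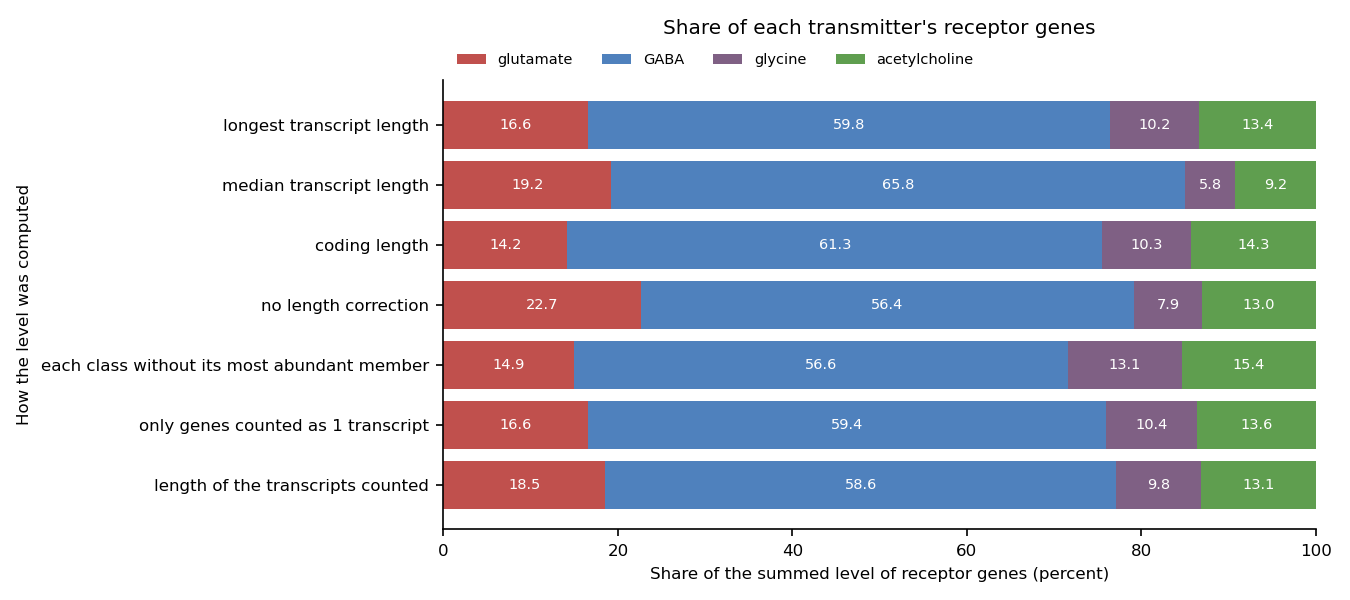
Stacked bars give the percent of the summed receptor level that belongs to each transmitter, with a bar for each way of computing the level or choosing the genes (16 libraries pooled, no error available). GABA holds between 56.4% and 65.8% in all bars.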

How the data were processed

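Right retinas of 16 mice were sequenced as stranded single-end RNA libraries from total RNA. Per the labels and methods, the authors trimmed reads with Trimmomatic, aligned them with TopHat2 to an NCBI mouse build that precedes GRCm38, counted reads per RefSeq transcript with HTSeq and used DESeq2 1.22.2 in R 3.5.1. The deposited signal used here is their mean over all 16 libraries of counts divided by size factors, 1 value per gene symbol. How transcripts were joined into symbols is not given in the sources used here. Fold changes, standard errors, test statistics and p-values of the authors' own comparison were not used. Neither were 32 per-library columns, whose names match no label, nor the 5 rows that name no gene; 25 genes had no row in the table of transcripts. Depth is therefore unknown and no test was run.

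Levels are the mean divided by the length in kilobases of the longest GENCODE M21 transcript, found for 23076 of 25905 genes (2236 by an older symbol) and all 67 members. Coding lengths came from the same annotation. A gene was detected at a mean of at least 10. Alternatives were the median transcript length, the coding length, no length correction, minimums of 1 and 50, and each class without its highest gene. The median was taken over all annotated transcripts of a gene and was shorter than the coding length for some genes. Chosen after seeing the data were the lengths of the counted transcripts and the limit to genes counted as 1 transcript. Sequences are from GENCODE M21 transcripts matched by accession, and gene order is from RefSeq. Named genes are the 3 highest and the lowest of each of 14 classes, all genes of a class of at most 4, and the highest and lowest of each partner list, or all of a list of at most 4. Members and lists were chosen with earlier results of these data known. Some genes that fall under this rule are not reported here. Genes named beyond it were chosen after their values were seen. Calculations used Python 3.11.15 and matplotlib 3.10.9.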

Additional observations from a re-analysis of the deposited data

How the results depend on the processing

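No paired analysis was possible because the per-library columns match no label, although titles of both groups share numbers. For the same reason the planned edgeR and DESeq2 tests of Flight against Ground Control, with their normalization, filter, block and threshold alternatives, were not run. The values have no spread, so any change in a share is listed. Coding length came from annotated coding exons, since no protein table was given.

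With the median transcript length the shares were 19.2% for glutamate, 65.8% for GABA, 5.76% for glycine and 9.23% for acetylcholine. With the coding length they were 14.2%, 61.3%, 10.3% and 14.3%, and with no length correction 22.7%, 56.4%, 7.85% and 13.0%, in the same order. Without the highest gene of each class they were 14.9%, 56.6%, 13.1% and 15.4%. Of the alternatives chosen after seeing the data, the lengths of the counted transcripts gave 18.5%, 58.6%, 9.78% and 13.1%, and genes counted as 1 transcript gave 59.4% for GABA, 10.4% for glycine, 13.6% for acetylcholine and 16.6% for glutamate. Acetylcholine stood above glutamate by coding length and without the highest gene of each class. The number of detected genes was 51, with 57 at a minimum of 1, 39 at 50, and 48 among genes counted as 1 transcript.

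Several orders turned with length. Grin2d over Grin2a was 0.574 with the median transcript length, 0.803 with the coding length, 0.725 with no correction and 0.587 with the counted transcripts. With the median transcript length, Gabrr1 over Gabrr2 was 0.925, Chrna6 over Chrna4 0.400, rho over GABA-A alpha 0.487 and rho over GABA-B 0.359. With the coding length, Glra1 over Glra2 was 0.837 and rho over GABA-A alpha 0.874. With no correction, the values were 0.846 for Glra1 over Glra2, 0.899 for rho over GABA-A alpha and 0.700 for rho over GABA-B. The median transcript length was shorter than the coding length for some of these genes, such as Chrna4, and for both GABA-B genes. For Gabrr1 and Chrna6 it was longer. The cause was not tested beyond the lengths themselves.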

Other observations

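Some subunit genes of related channels lie outside the naming rule and were chosen after their values were seen. The GABA-A genes Gabre and Gabrq had mean normalized counts of 3.70 and 3.79, and Gabrp of 0.0594. The nicotinic genes of the muscle type, Chrnd, Chrne and Chrng, were listed at 0, 0.510 and 0.0594. Of the serotonin channel genes, Htr3a was listed at 0 and counted as 2 transcripts, while Htr3b stood at 0.177 with 1 transcript. Grina, named for the NMDA receptor but not a subunit that binds glutamate, had a mean normalized count of 3053.

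Genes counted as more than 1 transcript were not low throughout. Of the 3794 such genes, 34 had a mean normalized count of 1000 or more, among them Trpm1 (2866), and 1239 were listed at 0.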
